A study of Mus musculus with 9 samples.

Results

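Intergenic sites of open chromatin 5 to 50 kb upstream of a gene are described here in the brain endothelial cells (ECs) of mice. A site counted as a member when its peak was annotated as intergenic and its centre lay 5000 to 50000 bp before the nearest annotated transcription start site (TSS). Over the 9 Omni-ATAC-seq libraries, 28561 of 253457 peaks (11.27%) met this rule, and the members of a single library numbered 424 to 5518. Downstream intergenic peaks at the same distances (13086) and intronic peaks (84030) served for comparison. Peaks just inside and outside the limits had similar medians. Within 500 bp of the near limit, 604 intergenic peaks inside had a median fold enrichment of 4.247 and 555 outside had 4.203, and at the far limit 167 inside had 3.997 and 146 outside had 4.266.

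All mice carried a tamoxifen-inducible Cre recombinase driven by the Cdh5 (VE-cadherin) promoter, which limits recombination mostly to ECs, and according to the study mice of both genotypes were treated alike. WT Cre mice (labelled CdH5CRE) had intact Klf4, and EC-K4KO mice (labelled ECK4KO) lost floxed Klf4 from ECs. The groups were young WT Cre (n = 2 libraries), young EC-K4KO (n = 3), old WT Cre (n = 2) and old EC-K4KO (n = 2). The labels do not say whether a library is 1 mouse or a pool, so p-values measure the spread between libraries, which may in part be technical. The names of all young libraries carry one prefix and those of all old libraries another, so age and what the prefix marks cannot be told apart.

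Open chromatin far from a promoter often marks enhancers, stretches of DNA where transcription factors bind and act on a gene from a distance. In ECs, factors of the ETS, SOX, FOX and KLF families are known to bind such elements. KLF4 is a zinc-finger factor of the KLF family that ECs induce under laminar flow, together with KLF2. An open site names the gene with the nearest TSS, which need not be the gene it acts on.

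Libraries differed greatly in how many peaks were called. The lists held 6157 and 9598 peaks in young WT Cre and 23848 to 45026 in the other groups, and read totals were not analysed here, so depth is unknown. Young EC-K4KO replicate 1 stood apart, since 1505 of its upstream regions (56.43%) had a peak in no other library, against 10.53% to 30.48% in the other 8 libraries. Comparisons of strength therefore used list position, the rank of a peak by its -log10 p as a percentage of its list, with values near 0 for the strongest peaks. A second, equal-length set took the 6157 strongest peaks of each library. The labelled cell type was checked on markers. Promoter peaks were called at 10 to 17 of the 20 endothelial identity genes, and at none of the 9 microglial genes. Of the 10 pericyte and mural genes, promoters were open at 0 in all young libraries and old WT Cre replicate 1, at 3 in old WT Cre replicate 2, at 6 in old EC-K4KO replicate 1 and at 3 in old EC-K4KO replicate 2. Of the 10 astrocyte genes, promoters were open at 0 to 2 in young libraries, at 2 and 3 in old WT Cre and at 4 and 3 in old EC-K4KO. Oligodendrocyte promoters were open at no more than 2 of 8 and neuronal ones at no more than 2 of 10. Promoter peaks at pericyte and mural markers were thus called in 3 of 4 old and no young libraries, those at astrocyte markers were most frequent in old libraries, and the part of these markers in the results was not tested. The Klf4 promoter had a peak in all 9 libraries, which does not show whether the floxed part was deleted.

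The sequences of 10 upstream sites are shown, chosen for strong peaks, for their pattern over the groups or for their gene. Each is the centre of the merged region, at most 300 bases of the plus strand of GRCm38 (the build named mm10), read from the RefSeq assembly. Capitals mark the motifs searched on both strands, namely ETS (GGAAGT), KLF (CCNCACCC), AP-1 (TGANTCA), SOX (AACAATG), FOX (TGTTTAC) and CTCF (AGGGGGC), where N is any base and matches of different motifs may overlap.

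The first 5 sites had an upstream peak in all 9 libraries. They lie near Hdac4, a class IIa histone deacetylase (chr1:92180481-92180780), Nr4a1, an immediate-early nuclear receptor (chr15:101246314-101246613), Fos, an AP-1 subunit (chr12:85455327-85455626), Fgd5, an exchange factor for Cdc42 that marks ECs (chr6:91972262-91972561), and Klf2 (chr8:72295648-72295947).
Hdac4: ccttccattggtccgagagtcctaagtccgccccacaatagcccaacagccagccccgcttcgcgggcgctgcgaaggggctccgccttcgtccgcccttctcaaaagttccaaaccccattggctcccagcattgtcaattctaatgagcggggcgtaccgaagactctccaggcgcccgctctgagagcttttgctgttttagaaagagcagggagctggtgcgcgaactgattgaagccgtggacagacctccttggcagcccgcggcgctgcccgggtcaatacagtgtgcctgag
Nr4a1: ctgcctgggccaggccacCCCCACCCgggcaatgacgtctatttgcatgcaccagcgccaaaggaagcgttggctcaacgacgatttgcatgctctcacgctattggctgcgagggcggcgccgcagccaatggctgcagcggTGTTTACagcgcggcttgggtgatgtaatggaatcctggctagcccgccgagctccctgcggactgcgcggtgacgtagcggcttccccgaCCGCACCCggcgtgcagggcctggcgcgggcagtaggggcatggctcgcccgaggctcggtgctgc
Fos: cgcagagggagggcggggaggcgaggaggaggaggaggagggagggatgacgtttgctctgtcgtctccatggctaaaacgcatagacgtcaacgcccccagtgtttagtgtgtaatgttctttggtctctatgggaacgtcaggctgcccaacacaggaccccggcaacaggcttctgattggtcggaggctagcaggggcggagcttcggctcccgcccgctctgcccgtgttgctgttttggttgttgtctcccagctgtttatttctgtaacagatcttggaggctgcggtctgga
Fgd5: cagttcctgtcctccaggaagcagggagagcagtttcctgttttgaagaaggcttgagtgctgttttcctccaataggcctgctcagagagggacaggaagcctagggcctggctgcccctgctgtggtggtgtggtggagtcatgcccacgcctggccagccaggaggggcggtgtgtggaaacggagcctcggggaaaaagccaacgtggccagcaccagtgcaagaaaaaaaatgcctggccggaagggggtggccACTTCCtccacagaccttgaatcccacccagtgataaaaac
Klf2: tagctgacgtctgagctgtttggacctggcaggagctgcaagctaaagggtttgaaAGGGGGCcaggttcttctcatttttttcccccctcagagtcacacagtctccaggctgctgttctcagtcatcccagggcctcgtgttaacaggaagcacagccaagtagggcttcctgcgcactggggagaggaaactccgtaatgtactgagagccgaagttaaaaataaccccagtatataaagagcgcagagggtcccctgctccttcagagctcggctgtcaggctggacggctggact
Nr4a1 held 2 KLF matches and 1 FOX match in its window, Fgd5 held 1 ETS match, Klf2 held 1 CTCF match, and the windows of Hdac4 and Fos held none of the 6.

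The other 5 sites are shown for their gene or their pattern over the groups. Cldn5 encodes claudin-5, the main tight-junction protein of brain ECs, and its best placed site (chr16:18733339-18733638) was open in all 9 libraries. Aacs, acetoacetyl-CoA synthetase, had the best placed site that was absent from young WT Cre alone (chr5:125465684-125465983). Mgst2, a microsomal glutathione transferase, had the best placed site of old libraries alone (chr3:51634489-51634788). The gene 1700064J06Rik had the better placed of the 2 sites found in all EC-K4KO and no WT Cre libraries (chr10:119063191-119063490). The RefSeq start nearest to that site is the one of Gm33677. Klf4 itself had a single upstream site in 2 or more libraries (chr4:55541500-55541799).
Cldn5: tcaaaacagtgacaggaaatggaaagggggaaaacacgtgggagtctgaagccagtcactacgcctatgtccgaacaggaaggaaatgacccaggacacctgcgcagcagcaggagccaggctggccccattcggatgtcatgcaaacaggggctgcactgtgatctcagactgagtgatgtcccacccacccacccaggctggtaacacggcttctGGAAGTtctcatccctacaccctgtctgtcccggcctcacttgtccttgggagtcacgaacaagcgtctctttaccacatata
Aacs: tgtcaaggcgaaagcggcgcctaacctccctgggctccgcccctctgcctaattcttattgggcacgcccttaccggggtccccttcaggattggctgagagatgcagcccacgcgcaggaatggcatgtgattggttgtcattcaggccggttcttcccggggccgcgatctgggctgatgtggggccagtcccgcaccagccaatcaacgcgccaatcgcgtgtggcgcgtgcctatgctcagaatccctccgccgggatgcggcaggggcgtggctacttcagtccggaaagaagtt
Mgst2: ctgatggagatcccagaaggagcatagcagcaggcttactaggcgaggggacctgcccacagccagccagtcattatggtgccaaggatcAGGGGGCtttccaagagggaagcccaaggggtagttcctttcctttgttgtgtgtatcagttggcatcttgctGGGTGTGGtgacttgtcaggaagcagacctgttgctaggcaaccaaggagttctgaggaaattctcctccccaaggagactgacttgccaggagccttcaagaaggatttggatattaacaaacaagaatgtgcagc
1700064J06Rik: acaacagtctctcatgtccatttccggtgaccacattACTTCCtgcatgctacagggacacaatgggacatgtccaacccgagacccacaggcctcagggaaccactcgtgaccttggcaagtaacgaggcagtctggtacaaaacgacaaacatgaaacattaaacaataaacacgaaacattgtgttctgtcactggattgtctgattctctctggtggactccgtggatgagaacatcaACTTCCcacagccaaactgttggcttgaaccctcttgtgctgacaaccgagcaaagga
Klf4: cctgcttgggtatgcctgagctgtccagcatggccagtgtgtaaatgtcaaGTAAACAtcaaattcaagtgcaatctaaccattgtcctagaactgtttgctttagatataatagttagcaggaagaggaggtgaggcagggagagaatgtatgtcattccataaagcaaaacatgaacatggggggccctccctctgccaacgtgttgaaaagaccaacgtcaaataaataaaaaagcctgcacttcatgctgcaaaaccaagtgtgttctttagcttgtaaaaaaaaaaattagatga
The window of 1700064J06Rik held 2 ETS matches, Mgst2 held 1 KLF and 1 CTCF match, Cldn5 held 1 ETS match, Klf4 held 1 FOX match and Aacs held none.

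Upstream sites were more numerous in EC-K4KO than in WT Cre libraries and in old than in young libraries, and the number followed the length of the list. Young WT Cre libraries held 424 and 722 upstream peaks. Young EC-K4KO libraries held 2660, 2606 and 2988. Old WT Cre libraries held 5165 and 3742, and old EC-K4KO libraries held 5518 and 4736. No young library reached an old one of its genotype, and old WT Cre replicate 1 lay between the 2 old EC-K4KO libraries. Libraries of the 2 genotypes were compared inside each age, and those of the 2 ages inside each genotype, with an exact permutation test that was two-sided (60 arrangements, smallest p 0.0167, Benjamini-Hochberg adjusted over 12 tests). EC-K4KO libraries held 1425.9 more upstream peaks than WT Cre libraries of the same age (adjusted p = 0.0444, exact permutation test, 4 of 5 EC-K4KO libraries above all WT Cre libraries of their age). Old libraries held 3128.1 more than young ones (adjusted p = 0.0286, exact permutation test, 4 of 4 above).

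Upstream sites also took a larger share of the longer lists. The share was 6.886% and 7.522% for young WT Cre, 10.30% to 11.15% for young EC-K4KO, 11.77% and 11.49% for old WT Cre and 12.26% and 12.12% for old EC-K4KO. It was higher in EC-K4KO by 2.03 percentage points and in old mice by 2.95 (each adjusted p = 0.0286, exact permutation test), in 5 of 5 and 4 of 4 libraries. Among the 6157 strongest peaks of each library the picture differed. Upstream sites made up 6.886% and 5.798% of them in young WT Cre, 4.759% to 5.408% for young EC-K4KO, 6.123% and 5.750% for old WT Cre and 6.026% and 6.009% for old EC-K4KO. The young EC-K4KO libraries lay below the other 6. Neither genotype (-0.59 percentage points, adjusted p = 0.127) nor age (0.26, adjusted p = 0.55) passed the exact permutation test there. The genotype difference was -1.253 points in young and 0.0812 in old mice, and a test of that difference gave an exact p of 0.05 (adjusted p = 0.3 over 6 such tests). List length moved with the number and the share in the whole lists, and its part in them was not tested beyond these equal-length values.

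**Figure D1:**
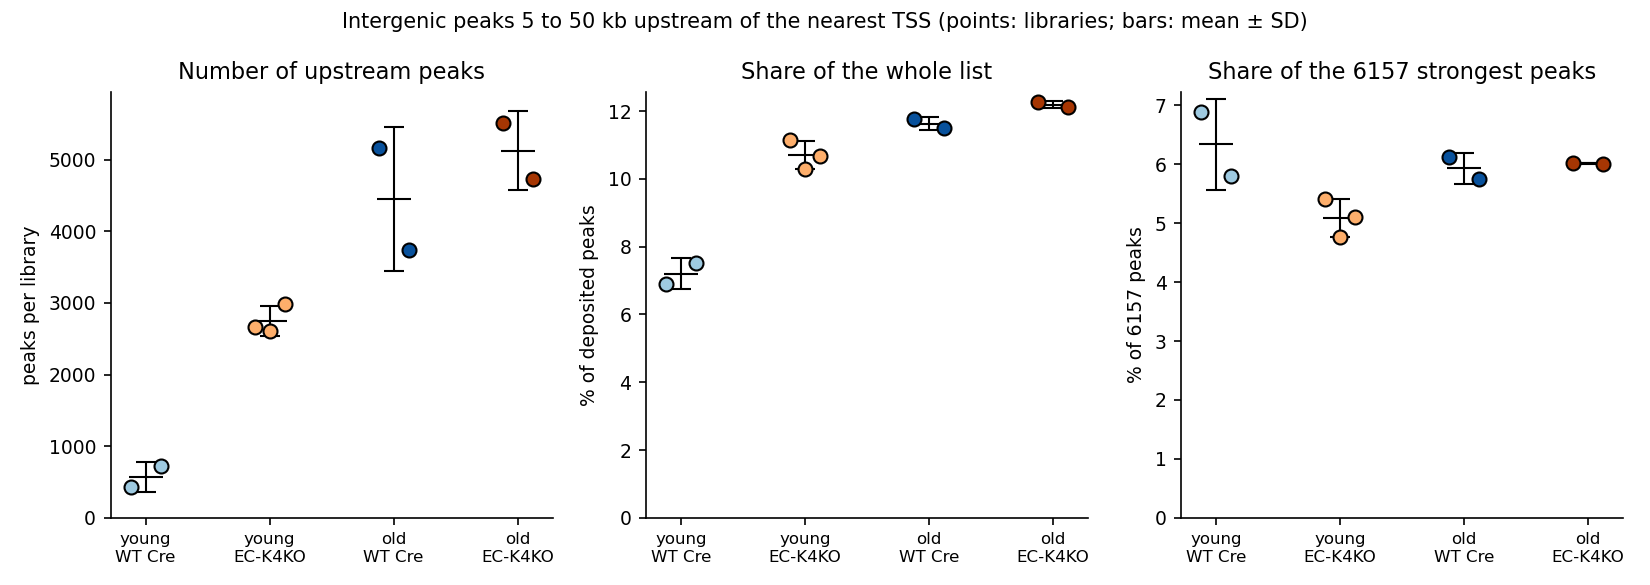
Number of upstream intergenic peaks per library (left), their share of the deposited list in % (middle) and their share of the 6157 strongest peaks in % (right), with 1 point per library and the group mean ± SD. Numbers range from 424 to 5518 and rise with list length, while the share of the strongest peaks stays between 4.759% and 6.886%.

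Upstream sites ranked in the weaker part of each list. Their median list position was 64.5 ± 0.470 for young WT Cre (mean ± SD, n = 2), 60.4 ± 1.48 for young EC-K4KO (n = 3), 55.6 ± 3.29 for old WT Cre (n = 2) and 54.9 ± 1.07 for old EC-K4KO (n = 2). The upstream median of the whole lists fell by 7.23 with age (adjusted p = 0.0286, exact permutation test, 4 of 4 old libraries beyond the young ones). A position is relative to a list, however, and the lists differ in length by group. Promoter peaks of the same lists had medians of 15.41 to 37.66, and these moved the same way, with group means of 35.5 for young WT Cre, 20.54 for young EC-K4KO, 17.74 for old WT Cre and 16.91 for old EC-K4KO. Within equal-length lists the upstream median was 57.14 to 64.20 in young and 58.50 to 61.21 in old libraries, and the age difference was 0.0365, in the other direction (adjusted p = 0.983, exact permutation test). The age difference of the whole lists was thus not found at equal length. The difference with genotype was -2.42 in the whole lists (adjusted p = 0.127) and -0.849 in the equal-length ones (adjusted p = 0.720), and neither passed the exact permutation test. Median fold enrichment of members over the local background was 3.006 to 5.157, median width 306 to 390.5 bp, and the longest member spanned 2901 bp.

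A larger share of upstream genes had several sites in EC-K4KO and in old libraries. A larger share of upstream peaks also named a gene with an open promoter there. Of the genes named by an upstream peak, the share with 2 or more such peaks was 6.030% and 7.025% for young WT Cre and 14.35% to 21.55% for young EC-K4KO. It was 28.26% and 28.00% for old WT Cre and 34.41% and 33.78% for old EC-K4KO. The groups did not overlap, and the differences were 8.72 percentage points with genotype and 18.85 with age (each adjusted p = 0.0286, exact permutation test). The share of upstream peaks whose gene also had a promoter peak rose from 23.82% and 27.29% for young WT Cre to 47.68% and 48.23% for old EC-K4KO. Its difference was 7.95 points with genotype (adjusted p = 0.0444) and 14.5 with age (adjusted p = 0.0286, exact permutation test). In equal-length lists these differences shrank to 0.456 and 0.859 points for several peaks and to 0.302 and -3.13 points for an open promoter, and none passed (adjusted p of 0.156 to 0.917, exact permutation test). When peaks were limited to q under 0.01, no genotype or age difference passed (smallest adjusted p = 0.0571, exact permutation test). With 1 library left out they passed only without an old WT Cre library. Fewer arrangements remain then. Without a young EC-K4KO library the smallest p of the exact permutation test is 0.0556, so no difference could pass there.

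Upstream and downstream intergenic sites were spread about equally over the sequence open to them. Upstream peaks outnumbered downstream ones in 9 of 9 libraries, by 5.68 percentage points of the list (SD 1.06, adjusted p = 0.0205, two-sided exact sign-flip permutation test over 9 libraries). Intergenic sequence at these distances, taken from RefSeq, is also longer upstream. Per Mb of it, libraries held 1.157 to 15.84 upstream and 1.213 to 16.71 downstream peaks, and the upstream density was 0.939 to 0.990 of the downstream one in all 9. Upstream density did not fall steadily with distance. It was higher at 10 to 20 kb than at 5 to 10 kb in 6 of 9 libraries, and lower at 40 to 50 kb than at 5 to 10 kb in 9 of 9. The density at 5 to 10 kb was 1.159 to 1.959 times that at 40 to 50 kb, with the 2 largest ratios in young WT Cre.

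**Figure D2:**
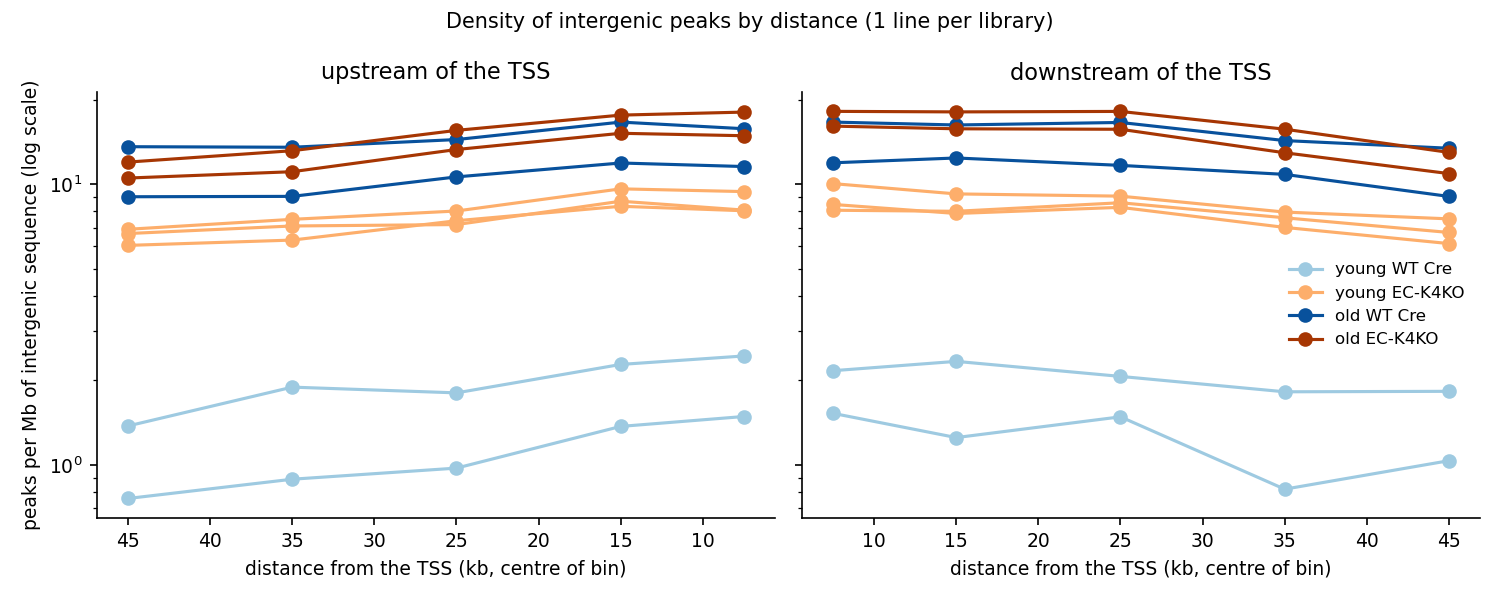
Peaks per Mb of intergenic sequence (log scale) against distance from the TSS in kb, upstream (left) and downstream (right), with 1 line per library coloured by group. Lines of the 2 sides lie at like heights (0.939 to 0.990 upstream over downstream) and are lower at 40 to 50 kb than at 5 to 10 kb in all 9 libraries.

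Upstream sites lay near genes with open promoters somewhat more often than the other distal classes did. The share of peaks whose gene had a promoter peak was 4.02 percentage points higher than downstream (SD 2.95, 8 of 9 libraries) and 2.40 points higher than in introns (SD 1.94, 8 of 9 libraries), each with adjusted p = 0.0205 by the exact sign-flip permutation test. The upstream median list position differed by -0.975 from the downstream one (adjusted p = 0.0205, exact permutation test, lower in 8 of 9). Median widths differed by 0.278 bp from downstream and by -0.389 bp from intronic peaks, and neither passed (adjusted p = 0.930, exact permutation test). In equal-length lists the open-promoter difference from downstream peaks turned to -1.78 points (adjusted p = 0.0866, exact permutation test). The position difference from downstream peaks was -2.05 there and no longer passed (adjusted p = 0.160, exact permutation test). Widths passed there, with differences of 6.50 bp from downstream (adjusted p = 0.0219) and -24.7 bp from intronic peaks (adjusted p = 0.00684, exact permutation test). The libraries share many regions, so these tests speak of repeat measurements of largely common regions.

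Merging peaks that shared at least 1 bp over all libraries gave 92495 regions, and 11644 of them held an upstream peak. Of these, 6699 (57.53%) were found in 1 library, 4945 (42.47%) in 2 or more and 281 (2.413%) in all 9. Downstream (57.29% in 1 library) and intronic regions (55.00%) recurred at like rates, whereas 7.739% of promoter regions were found in 1 library and 31.46% in all 9. Recurrent upstream regions were stronger and longer. From 1 library to all 9, the median list position went from 84.24 to 20.18, the median length from 245 to 822 bp and the median distance from 19942 to 15860 bp before the TSS. Length grows in part by the merging itself, since more peaks enter a region.

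**Figure D3:**
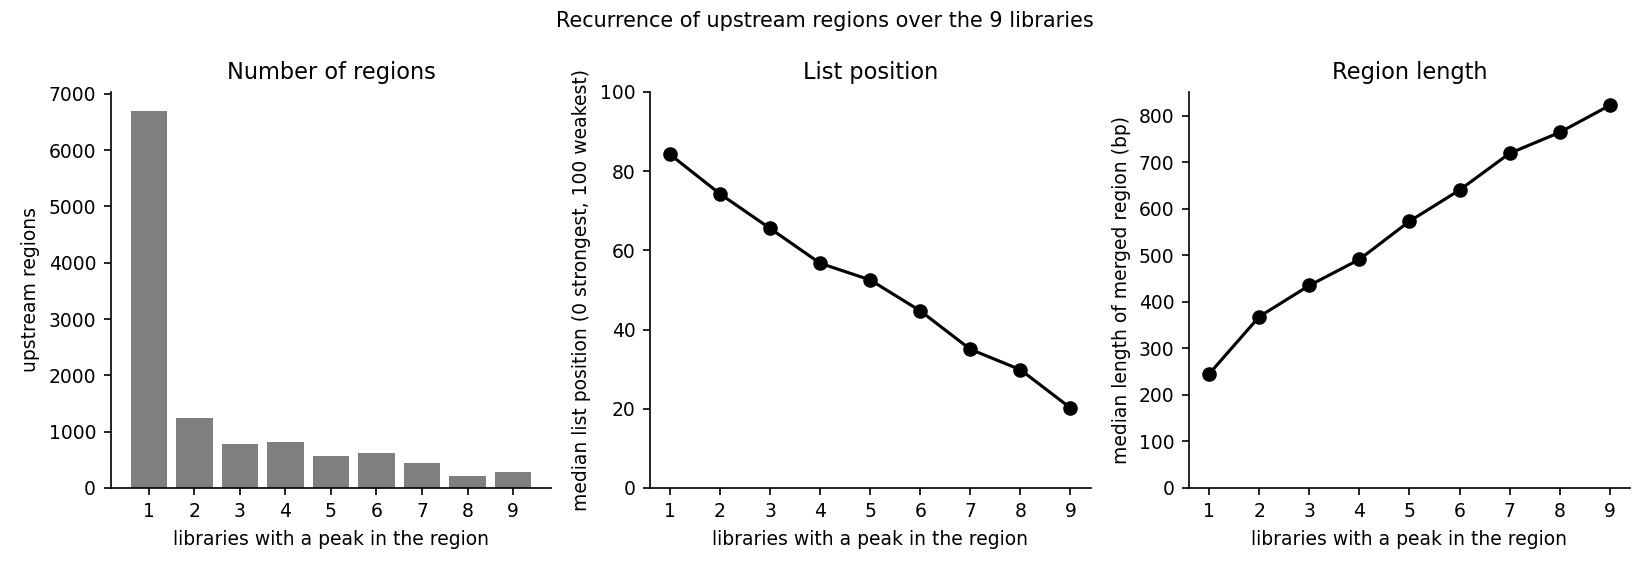
Number of upstream regions (left), their median list position in % (middle) and the median length of the merged region in bp (right) against the number of libraries with a peak in the region. Most regions (6699) belong to 1 library, and position falls from 84.24 to 20.18 and length grows from 245 to 822 bp towards regions of all 9 libraries.

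Recurrent regions were also richer in GC and poorer in repeats. Mean GC of the central 200 bp was 48.14% in regions of 1 library and 56.59% in regions of all 9, and repeat-masked sequence fell from 27.28% to 8.422%. Windows of the same length over the whole upstream intergenic sequence held 42.51% GC. Regions of all 9 libraries held 8.964 CpG dinucleotides per window against 2.340 in those of 1 library. Some lay at a TSS that the annotation of the files does not use. A RefSeq start within 1 kb was found for 23 of the 281 regions in all 9 libraries (8.185%) and for 41 of the 6699 in 1 library (0.612%). The best placed site of all, 32237 bp before Hdac4 by the files, is 1 of them, with its strongest peak 292 bp before a RefSeq start of Hdac4.

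Of the 275 regions with an upstream peak in all 9 libraries, the 12 with the best mean list position were named by rule. They lay near Hdac4, Nr4a1, Fos, Gm16432, Foxj2, Ccnl1, Fgd5, Ssu2, Klf2, Mir30d, Mirlet7a-1 and Lmna. At Hdac4 (chr1:92180199-92181067) the fold enrichment was 8.45 and 9.20 for young WT Cre, 9.66, 13.2 and 13.2 for young EC-K4KO, 10.8 and 11.7 for old WT Cre and 11.9 and 10.7 for old EC-K4KO. Its list position was at most 1.316 in every library. The Fos region (chr12:85455009-85455973, 18425 bp before the TSS) showed 7.78 and 8.59 for young WT Cre, 8.76, 9.89 and 10.3 for young EC-K4KO, 8.61 and 9.06 for old WT Cre and 10.1 and 9.29 for old EC-K4KO. Values of the 4 groups lay close together at this site. At Klf2 (chr8:72295344-72296188, 23265 bp before the TSS) fold enrichment was 7.81 and 6.87 for young WT Cre and 8.78 to 9.70 in the 7 other libraries. The region near Mir30d, a microRNA gene, reached the highest -log10 p of any member (324.6, old EC-K4KO replicate 1), while young WT Cre replicate 1 placed it at 16.63 in its list. Fgd5 ranked at 5.02 and 4.98 for young WT Cre, 1.51 to 2.25 for young EC-K4KO and 0.348 to 0.664 in old libraries, which are positions in lists of unequal length.

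Several endothelial genes stood among those with the most upstream regions. Counting regions found in 2 or more libraries, 3177 of the 20035 genes named in the files had at least 1 (15.9%), 1065 had 2 or more and 74 had 5 or more. The 12 genes with the most were Egfl7 and Ppap2a (9 each), Tjp1 (8), 4931406P16Rik, Arhgap23, Ly6e, Flt1, Bach1, Tnfsf10, Chst15 and Csf1 (7 each) and Mir3089 (6). Ties were ordered by the number of library peaks and then by name, and Mir3089 was 1 of 24 genes with 6 regions. Egfl7 encodes a protein that ECs secrete, and Flt1 the VEGF receptor 1. Tjp1 encodes the tight-junction scaffold ZO-1, Bach1 a haem-regulated repressor, Tnfsf10 the death ligand TRAIL and Csf1 the growth factor of macrophages and microglia.

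The 9 regions of Egfl7 span chr2:26544396-26578824, from 5366 to 39153 bp before the TSS. Young WT Cre libraries held 1 each, young EC-K4KO libraries 3, 5 and 5, old WT Cre libraries 8 and 6 and old EC-K4KO libraries 9 and 7. The region nearest the TSS was open in all 9 libraries, with fold enrichments of 3.52 and 4.47 for young WT Cre, 3.12 to 6.31 for young EC-K4KO, 5.98 and 5.81 for old WT Cre and 6.77 and 6.43 for old EC-K4KO. The 2 farthest regions, at 37212 and 39153 bp, were found in all 4 old and no young libraries. That pattern held for 11.57% of upstream regions in 2 or more libraries, beside 8.91% of all classes. Flt1 had its strongest region 25892 bp before the TSS, in all 9 libraries, with fold enrichments of 3.78 and 4.85 for young WT Cre, 5.67, 8.61 and 9.52 for young EC-K4KO, 10.1 and 11.3 for old WT Cre and 10.97 and 11.25 for old EC-K4KO. Old libraries exceeded all young ones there. The fold at a peak also depends on the local background of its library, which was not compared here. How many of all regions found in every library show this order of ages was not counted. The order can therefore not be called particular to the genes named here or below.

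Tjp1 had 1 region in each young WT Cre library, 3, 2 and 3 for young EC-K4KO, 4 in each old WT Cre library and 7 and 8 for old EC-K4KO. Its region 47693 bp before the TSS was found in all 9. Ppap2a, a lipid phosphatase, had none in young WT Cre and 5 to 8 in old libraries. Tnfsf10, Chst15 and Csf1 likewise had none in young WT Cre and 7 of 7 in both old EC-K4KO libraries. Bach1 had 1 region in each young WT Cre library, which lay 37646 bp before the TSS at a mean list position of 5.147 over all 9 libraries. Of the 4945 upstream regions in 2 or more libraries, 4029 had a peak in both old EC-K4KO libraries. Both young WT Cre libraries held 291. The genes were ranked by such regions, so this order of the groups cannot be called particular to them. Its share over regions of all classes was not counted.

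**Figure D4:**
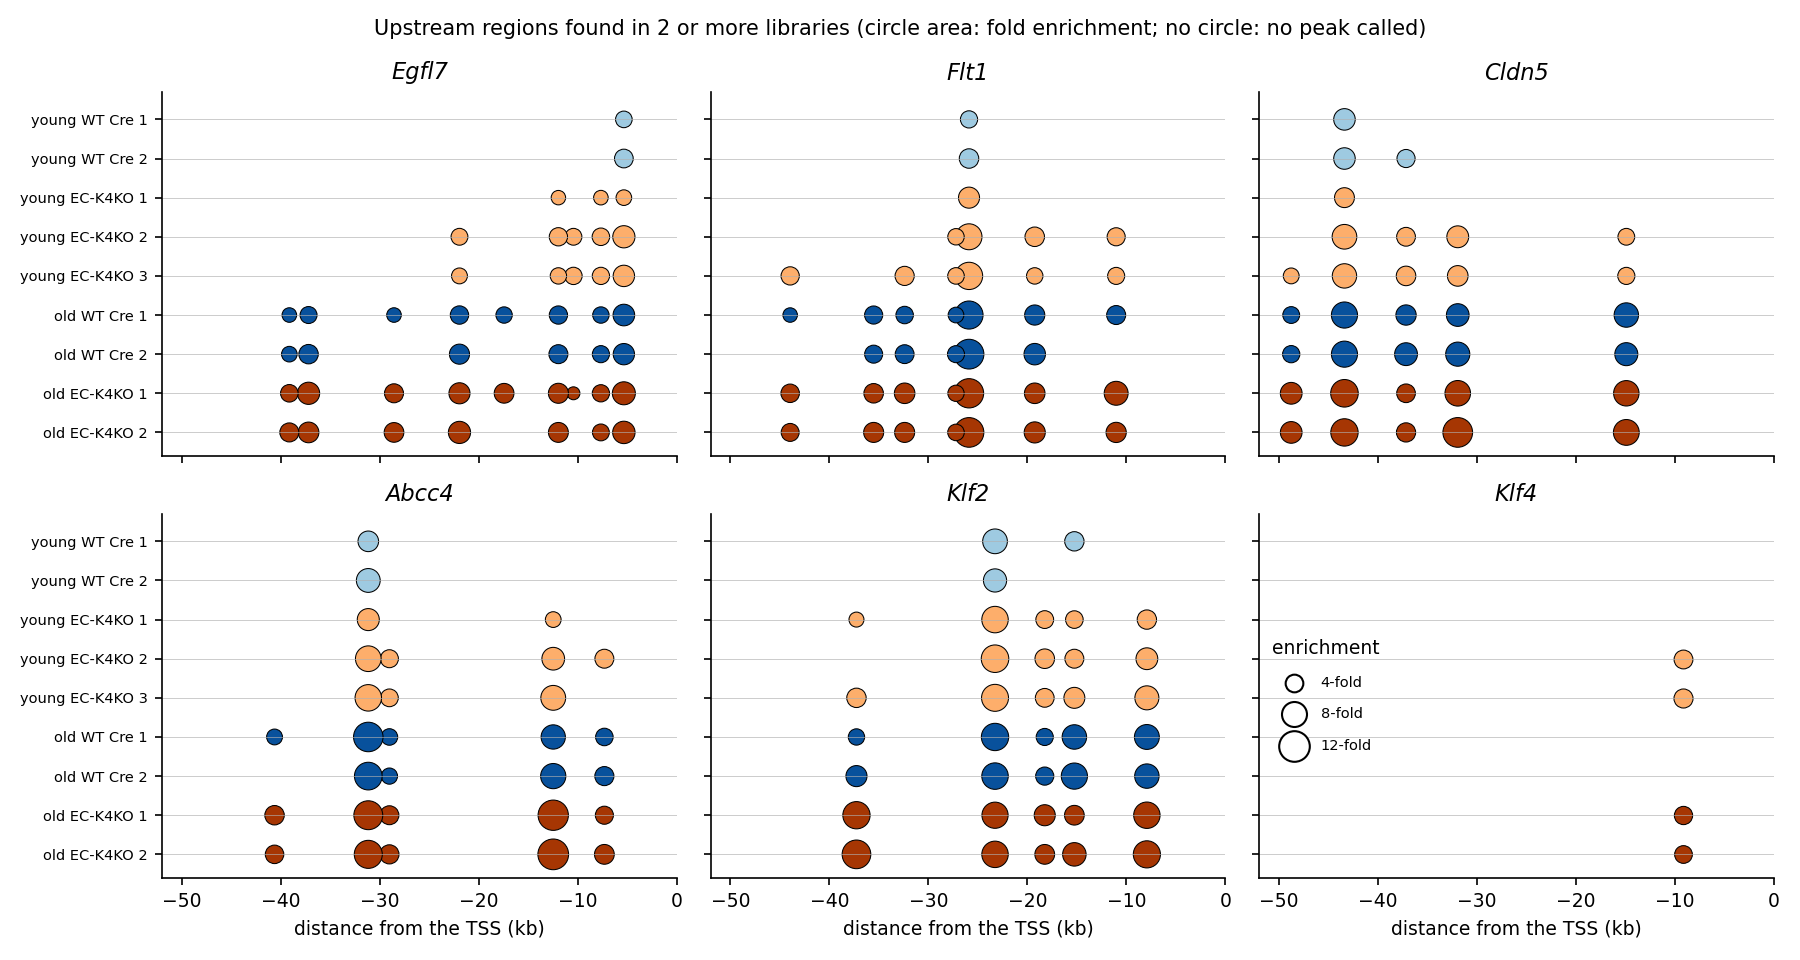
Upstream regions of 6 genes by distance from the TSS in kb (horizontal) and library (rows, coloured by group), for regions found in 2 or more libraries, with circle area for fold enrichment and no circle where no peak was called. Each of Egfl7, Flt1, Cldn5, Abcc4 and Klf2 has 1 region in all 9 libraries and further regions mostly in the longer lists. A further Klf2 region also appears in young WT Cre replicate 1 and a further Cldn5 region in young WT Cre replicate 2. The region of Klf4 appears in 4 EC-K4KO libraries.

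Gene lists chosen for brain ECs were well covered by upstream regions. At least 1 region in 2 or more libraries was found for 16 of 20 endothelial identity genes, 19 of 23 genes of Wnt, Notch and TGF-beta signalling, 11 of 18 barrier and transport genes and 11 of 18 activation and inflammation genes, against 15.9% of all genes. KLF and flow genes (6 of 16) and stress and senescence genes (5 of 19) were covered less. Markers of other cells had a region for 4 of 10 astrocyte, 2 of 10 pericyte and mural, 1 of 9 microglial, 2 of 8 oligodendrocyte and 2 of 10 neuronal genes. Endothelial identity genes have more upstream intergenic sequence in the window (median 28.05 kb) than all genes (4.6 kb). Coverage rose with that length from 2.206% of genes with none to 37.28% of those with 30 to 40 kb. It was lower, at 28.79%, for genes with over 40 kb. All genes with the same lengths as the list members had a region in 25.5% for endothelial identity, 17.97% for signalling, 20.77% for barrier and transport and 21.75% for activation. For the other lists these shares were 21.06% for KLF and flow, 17.67% for stress and senescence, 26.15% for astrocyte, 18.89% for pericyte and mural, 18.90% for microglial, 19.79% for oligodendrocyte and 19.87% for neuronal genes. The lists are descriptions, and no test was made on them. Of these markers, Fgfr3, a growth factor receptor of the astrocyte list, had a region with a peak in all 9 libraries (chr5:33689240-33690356, folds 2.33 to 5.43) and a promoter peak in 6. The peaks of that region named Fgfr3 in young WT Cre replicate 1 and the neighbouring gene Tacc3 in the other libraries. Mog, a myelin gene, had a region in 8 libraries (chr17:37028559-37029074, folds 3.56 to 14.1) and no promoter peak. Both were picked after their values were seen. Without both young WT Cre libraries each list kept its count. In equal-length lists the counts were 7 endothelial identity, 6 signalling, 5 barrier and 2 activation genes, beside 2.326% of all genes.

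**Figure D5:**
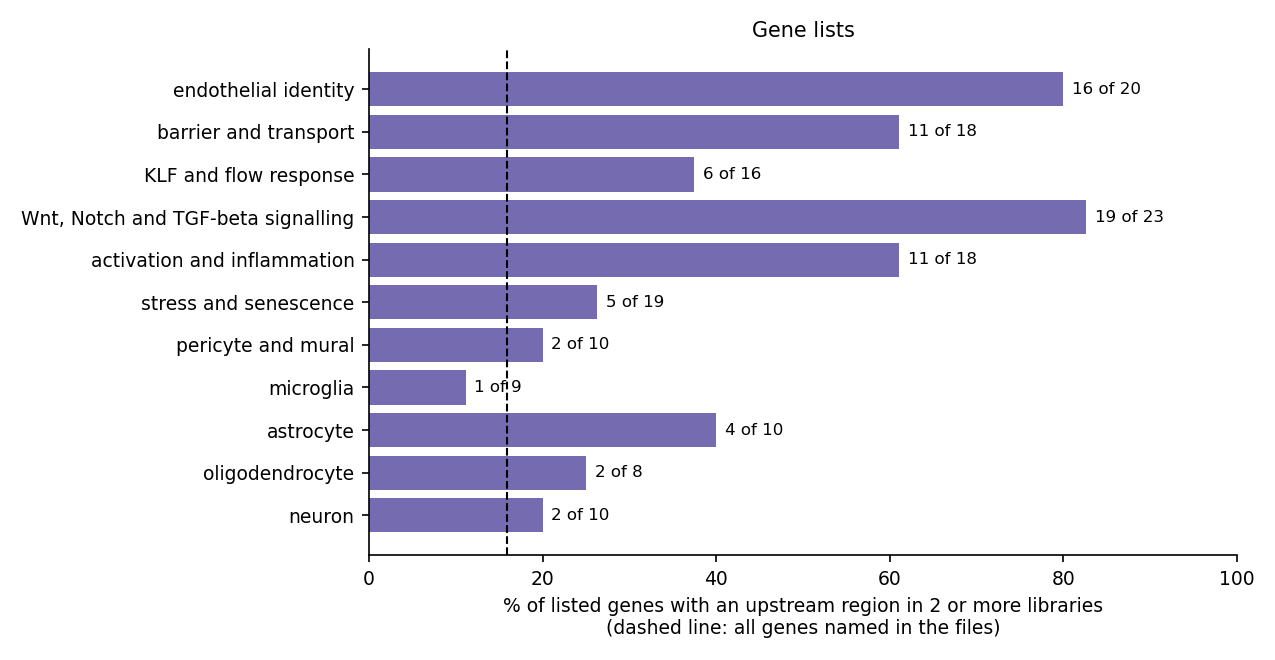
Share of the genes of each list (in %, with counts) that had an upstream region in 2 or more libraries, and the share over all genes named in the files (15.9%, dashed line). Endothelial identity (16 of 20) and Wnt, Notch and TGF-beta signalling (19 of 23) stand highest, and markers of other brain cells lie at 11.11% to 40%.

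Among endothelial identity genes, Flt1, Fli1, Ets1, Egfl7, Vwf and Cd34 had an upstream peak in all 9 libraries. Fli1 and Ets1 encode ETS factors, Vwf the von Willebrand factor that ECs store and release, and Cd34 a sialomucin of the EC surface. The Vwf region 23223 bp before the TSS (chr6:125529473-125530058) had fold enrichments of 4.76 and 4.92 for young WT Cre, 5.64, 8.33 and 9.66 for young EC-K4KO, 9.94 and 11.96 for old WT Cre and 13.3 and 11.7 for old EC-K4KO. The single Cd34 region (chr1:194927786-194928368) showed 4.39 and 6.98 for young WT Cre, 4.38, 10.9 and 9.04 for young EC-K4KO and 11.2 to 12.5 in old libraries. Both sites had higher fold in old than in young libraries without overlap, an order whose share over all regions was not counted. Cdh5, whose promoter drives the Cre, had 4 regions, the best at chr8:104076442-104077377, found in 6 libraries and in neither young WT Cre library. Erg, Sox18, Eng and Esam had no such region.

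Cldn5, Abcc4 and Slc2a1 showed 1 common site each and further sites mostly in longer lists. Cldn5 had its best region 43359 bp before the TSS (chr16:18733089-18733867), with fold enrichments of 5.93 and 5.93 for young WT Cre, 5.07, 7.78 and 7.60 for young EC-K4KO, 8.74 and 8.704 for old WT Cre and 9.72 and 9.58 for old EC-K4KO. Abcc4, an efflux transporter of organic anions, had its best region 31179 bp before the TSS (chr14:118737050-118737769), at 5.43 and 7.26 for young WT Cre, 6.21, 8.43 and 8.97 for young EC-K4KO, 11.1 and 9.81 for old WT Cre and 10.7 and 10.1 for old EC-K4KO. Slc2a1, the glucose transporter GLUT1, had a region in all 9 libraries 13408 bp before the TSS, with folds of 2.86 to 7.11. At the first 2 of these sites every old library exceeded every young one, and the share of all regions with that order was not counted. Mfsd2a, Slc7a5, Lsr, Cav1 and Marveld2 had no upstream peak.

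Of the signalling genes, Hes1, Smad7, Id1, Tgfbr2 and Lrp6 had an upstream peak in every library. Hes1, a repressor that Notch induces, had fold enrichments of 4.43 and 3.72 for young WT Cre, 3.94, 8.81 and 9.50 for young EC-K4KO, 9.79 and 11.4 for old WT Cre and 14.8 and 14.1 for old EC-K4KO (chr16:30053094-30053519). Every old library exceeded every young one at the Hes1 site. The same held for Lrp6, a Wnt co-receptor, with 3.52 to 8.39 in young and 9.435 to 11.69 in old libraries, and for Tgfbr2, a TGF-beta receptor, with 3.51 to 7.25 and 7.57 to 10.1. It did not hold for Smad7, an inhibitor of TGF-beta signalling, at 3.86 to 5.83 and 4.28 to 6.69. The share of all regions with that order of ages was not counted, and local background was not compared between libraries. At the Id1 region of all 9 libraries the young ones had 3.96 to 4.96, old WT Cre 4.08 and 4.80, and old EC-K4KO 3.30 and 3.16, below all others. Axin2, a feedback target of Wnt signalling, had 3 regions, and each was found in old libraries alone. Vcam1, an adhesion molecule of activated ECs, had 2 regions, both in all 4 old and no young libraries, and 1 further upstream peak in young EC-K4KO replicate 1. Such patterns were common, and old libraries had the longer lists. Of upstream regions in 2 or more libraries, 42.37% were in 2 or more old and no young libraries, beside 34.5% of all classes. All 4 old and no young libraries held 11.57%, beside 8.91%. Nfkbia, an inhibitor of NF-kappaB, had a region in all 9 libraries, with fold enrichments of 3.87 to 6.59.

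Klf2 had 5 upstream regions and Klf4 had 1. The 4 other Klf2 regions, 7928 to 37260 bp before the TSS, were found in 6 to 8 libraries, and young WT Cre libraries held 1 of these 8 possible calls. The Klf4 region (chr4:55541249-55541968, 9174 bp before the TSS) was found in young EC-K4KO replicates 2 and 3 (fold 4.53 and 4.65) and in old EC-K4KO replicates 1 and 2 (4.27 and 4.03). No WT Cre library and not young EC-K4KO replicate 1 had a peak there. It was a weak peak, at a mean list position of 62.71. Over all upstream regions, in counts chosen after values were seen, 28 were found in 4 or 5 EC-K4KO and no WT Cre libraries, and 1 in 3 or 4 WT Cre and no EC-K4KO libraries. Of the 4945 upstream regions in 2 or more libraries these were 0.566% and 0.0202%, beside 0.41% and 0.00759% of the 39508 regions of all classes. In equal-length lists the counts were 4 and 8 of 518 upstream regions (0.772% and 1.54%, beside 0.416% and 0.693% of 7935 regions), so the direction turned. Tnfaip3, an inhibitor of NF-kappaB signalling, had a region of the same pattern 46925.5 bp before its TSS.

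Presence of regions was compared between groups, where a region counted as gained when 2 or more libraries of the first group and none of the second had a peak, and as lost in the reverse case. No test was made on these counts, and the contrasts share libraries. In young EC-K4KO against young WT Cre, 1106 of 1712 upstream regions were gained (64.60%, against 51.6% of regions of all classes) and 1 was lost (0.0584% against 0.00547%). Leaving out young EC-K4KO replicate 1 gave 992 gained regions, leaving out replicate 2 gave 434 and leaving out replicate 3 gave 414, when both of the remaining libraries had to hold the peak. Without replicate 3, 2 regions were lost. In old WT Cre against young WT Cre, 2183 of 2787 were gained (78.33% against 64.5%) and 0 were lost (against 0.00401%). Both contrasts with young WT Cre thus ran almost wholly one way, as did the lists' lengths. In old EC-K4KO against old WT Cre, 663 of 4621 were gained (14.35% against 11.8%) and 67 lost (1.45% against 1.06%). Without old WT Cre replicate 1 the gained count was 1110, and without old EC-K4KO replicate 1 the lost count was 135. In old EC-K4KO against young EC-K4KO, 1625 of 4308 were gained (37.72% against 29.9%) and 54 lost (1.253% against 1.15%), and 7, 18 and 31 were lost without young EC-K4KO replicate 1, 2 or 3.

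Equal-length lists gave smaller and more even counts. In young EC-K4KO against young WT Cre, 52 of 392 upstream regions were gained (13.27% against 10.2%) and 26 lost (6.633% against 2.6%). For old EC-K4KO against old WT Cre the counts were 21 of 404 gained (5.198% against 3.32%) and 18 lost (4.455% against 3.62%). For old WT Cre against young WT Cre they were 68 of 409 gained (16.63% against 11.1%) and 37 lost (9.046% against 6.54%). For old EC-K4KO against young EC-K4KO they were 66 of 420 gained (15.71% against 5.97%) and 43 lost (10.24% against 11%). The share of upstream regions lay above that of all regions in 7 of these 8 counts and below it in 1.

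Named regions show what the patterns look like. All of these counts follow lists of unequal length, and shares are of regions in 2 or more libraries. The rule found 360 regions in all 7 libraries outside young WT Cre (7.28%, beside 9.21% of regions of all classes), and the best placed lay near Aacs, Uvrag, Alas1, Snhg7 and Slc45a4. Aacs (chr5:125465647-125466022) had fold enrichments of 4.44, 9.53 and 11.6 for young EC-K4KO, 12.01 and 13.1 for old WT Cre and 16.4 and 15.4 for old EC-K4KO. Alas1, which makes the first enzyme of haem synthesis, showed 4.43, 8.92 and 7.36 for young EC-K4KO, 9.96 and 11.4 for old WT Cre and 14.9 and 13.5 for old EC-K4KO. These are strong peaks, at mean list positions of 7.595 and 9.732, that no young WT Cre library called. Another 572 regions were found in all 4 old and no young libraries (11.57%, beside 8.91%), with the best placed near Mgst2, Bach1, Herc1, Tpst1 and Lef1. Mgst2 (chr3:51634477-51634795) had 7.59 and 8.67 for old WT Cre and 9.81 and 7.05 for old EC-K4KO. Lef1, a transcription factor of Wnt signalling, had 7.26 and 7.85 for old WT Cre and 10.02 and 7.91 for old EC-K4KO, 45663 bp before the TSS. In the reverse direction, 58 upstream regions were found in 2 or more young and no old libraries, against 2095 in 2 or more old and no young libraries (1.17% and 42.37%, beside 1% and 34.5% of all classes). Equal-length lists gave 66 and 64 such regions (12.74% and 12.36%, beside 11.5% and 5.67%). They left 10 regions in all 7 libraries outside young WT Cre (1.93%, beside 2.21%) and 22 in all 4 old and no young libraries (4.25%, beside 1.61%).

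Genotype alone marked few regions. The 2 regions in all EC-K4KO and no WT Cre libraries lay near 1700064J06Rik (chr10:119063151-119064056, folds 2.82 to 5.23) and Leo1, a subunit of the PAF1 complex (chr9:75425957-75426375, folds 2.79 to 4.36). They were 0.0404% of upstream regions, beside 0.0456% of all classes, and equal-length lists held 1 such region (0.193%, beside 0.126%). Both sat low in the lists, at mean positions of 55.99 and 63.58. No region was found in all WT Cre and no EC-K4KO libraries. One region, near Gm38415, was found in both young WT Cre libraries and in at most 1 other, which was old WT Cre replicate 2 (0.0202%, beside 0.00253%). Equal-length lists held 24 regions of that kind (4.63%, beside 2.56%).

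Motifs of endothelial factors were more common in upstream peaks than in the surrounding intergenic sequence. ETS sites occurred in the central 200 bp of 20.43% ± 2.47 of upstream peaks (SD, n = 9 libraries), against 11.47% of windows over the upstream intergenic sequence and 19.45% of all peaks. AP-1 sites occurred in 11.78% ± 1.55 against 5.825% of windows and 8.197% of all peaks. KLF sites occurred in 9.91% ± 0.798 against 4.528% of windows and 10.37% of all peaks, and CTCF sites in 5.183% against 1.654% and 6.643%. FOX sites occurred in 4.364% against 2.833% of windows and 3.362% of all peaks, and SOX sites in 4.948% against 3.887% and 4.149%. KLF and CTCF sites were therefore less frequent upstream than among all peaks, without a test. Promoter peaks held AP-1 sites in 2.588%, SOX sites in 1.016%, FOX sites in 1.48%, ETS sites in 20.44%, KLF sites in 13.53% and CTCF sites in 12.05% of cases. Upstream peaks are richer in GC (51.53%) than the windows (42.51%), and the part of base composition in the motif shares was not tested.

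Recurrent regions held more of these sites. From regions of 1 library to regions of 4 to 6 libraries, ETS sites went from 13.45% to 24.64%, KLF sites from 6.404% to 11.49% and SOX sites from 3.075% to 6.774%. AP-1 sites went from 7.568% in regions of 1 library to 15.17% in regions of 7 to 8 libraries. Regions of all 9 libraries held ETS sites in 22.06%, KLF sites in 9.609% and SOX sites in 4.270%, each below the value at 4 to 6 libraries.

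Against intronic peaks, upstream peaks held ETS sites more often by 1.03 percentage points (SD 1.16, 8 of 9 libraries) and their share with SOX sites differed by -0.464 (SD 0.296, lower in 8 of 9), each with adjusted p = 0.0469 by the exact sign-flip permutation test over 12 motif differences. In equal-length lists the SOX difference from intronic peaks was -0.344 and did not pass (adjusted p = 0.387, exact permutation test, higher in 5 of 9 libraries). SOX sites were also less common than in downstream peaks, with a difference of -0.901 points (SD 0.953, lower in 8 of 9 libraries, adjusted p = 0.0469, exact permutation test). In equal-length lists the KLF share was 10.86% upstream, 16.09% downstream and 13.46% in introns, lower upstream than downstream in 9 of 9 libraries (adjusted p = 0.0117, exact permutation test). That difference was -1.32 points in the whole lists and did not pass (adjusted p = 0.15, exact permutation test). These differences rest on 293 to 424 upstream peaks per equal-length list, many of them the same regions.

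No genotype or age difference in the motif shares of upstream peaks passed in equal-length lists after adjustment over 12 tests. The exact permutation test gave an unadjusted p under 0.05 in 5 of the 12, and the smallest adjusted p was 0.0667. SOX sites were higher in EC-K4KO by 1.54 percentage points and in old libraries by 2.56, CTCF sites were higher in EC-K4KO by 1.90, FOX sites were higher in old libraries by 1.29 and AP-1 sites differed by -2.64 between old and young libraries. KLF sites differed by -2.55 points between EC-K4KO and WT Cre (unadjusted exact p = 0.15), with group means of 11.58% for young WT Cre, 11.03% for young EC-K4KO, 12.64% for old WT Cre and 8.096% for old EC-K4KO. Over all deposited upstream peaks the same KLF difference was -0.936 points (adjusted p = 0.4, exact permutation test).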

How the data were processed

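Omni-ATAC-seq, which cuts open chromatin with a transposase, was run on flow-sorted brain ECs of 9 libraries. The authors trimmed reads with TrimGalore, aligned them to mm10 with Bowtie2, called broad peaks with MACS2 in each library alone, and annotated each peak with its nearest TSS by HOMER annotatePeaks. The deposited peak files hold for each peak the fold (a ratio over local background), the -log10 of p, the -log10 of q and a score made from the q-value. Depth per library is unknown, so no counting interval is given. The highest q of a member was 0.09973, and the number of columns of other samples was 0.

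Groups came from the sample titles. Members were intergenic peaks 5000 to 50000 bp upstream by the deposited annotation. Peaks of all libraries that shared 1 bp or more were merged. An alternative merged at 100 bp. Sequence, starts and intergenic length came from RefSeq for GRCm38, on whose chromosomes 100% of peaks lay, and 85.55% of members kept their gene there. Tests were two-sided exact permutation tests over libraries with Benjamini-Hochberg adjustment, at 0.05. Named regions were the 12 best placed by -log10 p in all 9 libraries, the 12 genes with most regions, the 5 best placed of each group pattern and the genes of 11 lists. The members, lists and patterns were chosen with earlier results of these data known. Procedures were tested on simulated data. Python 3.11.15, numpy 2.4.6, pandas 2.3.3, scipy 1.17.1, pysam 0.24.0 and matplotlib 3.10.9 were used.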

Additional observations from a re-analysis of the deposited data

How the results depend on the processing

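Limits of depth could not be assessed, since the files hold peaks and no read totals, and a missing peak is no measure of closed chromatin. Each direction of the genotype and age differences that passed was kept under every alternative except equal-length lists, where the age difference in open promoters turned to -3.13 percentage points and, in an alternative added after seeing the data, that in position to 0.0365. The genotype difference in open promoters was 0.302 there, and those in genes with several peaks were 0.456 (genotype) and 0.859 (age), none past the threshold.

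Limiting peaks to q under 0.05 ended 3 calls, with 8.71 points for several peaks by genotype and 8.37 and 13.8 for open promoters by genotype and age. At q under 0.01 no call was left, with 1242.3 and 2877.2 peaks, 1.83 and 4.56 points of share, 8.13 and 17.99 for several peaks and 7.21 and 14.5 for open promoters (genotype, then age), and -2.38 for position by age. The upstream minus intronic position then passed at -2.57, and lost regions were 0 (young EC-K4KO against young WT Cre), 25 (old EC-K4KO against old WT Cre) and 1 (old against young EC-K4KO). A window from 10 kb ended the genotype calls for number (1104.9) and open promoters (7.59). A window to 100 kb ended those for number (1773.8), share (2.52, and 3.59 by age) and open promoters (7.40). RefSeq starts ended those for number (1337.5), open promoters (7.86) and share by age (2.93). Among the 1000 strongest peaks the share differed by 0.292 with genotype, in the reverse direction.

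Replicate numbers did not pair the libraries (correlations of -0.0339 to 0.0251). With the replicate block the smallest p is 0.125, so no call could pass, at 1366.8 and 3187.2 peaks, 2.04 and 2.94 points of share, 7.83 and 19.7 for several peaks, 7.01 and 15.4 for open promoters and -7.64 for position by age.

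In equal-length lists the upstream minus downstream differences were -2.05 for position, -1.78 for open promoters (reversed) and 6.50 bp for width (now past the threshold), and the upstream minus intronic ones were -4.01 for position and -24.7 bp for width, both now past it. Region counts became 52, 21, 68 and 66 gained and 26, 18 and 37 lost, in the order of the equal-length counts above. Motif differences past the threshold rose from 3 to 9. With both classes cut at 10 kb, upstream minus downstream position was -0.426 and width -2.11 bp. Merging at 100 bp left 0 lost regions in young EC-K4KO. In whole lists the ETS difference by genotype was -0.908 and the CTCF difference by age 0.891, both reversed. The causes were not tested.

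With 1 library left out, fewer arrangements remain, and genotype or age calls passed only without an old WT Cre library. Without a young EC-K4KO library the smallest p of the exact permutation test is 0.0556, so no call could pass. Ranges were 1070.2 to 1781.7 and 2772.3 to 3483.8 peaks, 1.87 to 2.19 and 2.79 to 3.11 points of share, -0.858 to -0.493 and -0.0108 to 0.355 points of equal-length share, -3.59 to -1.26 and -8.39 to -6.07 for position, 7.83 to 9.63 and 17.9 to 19.7 for several peaks and 6.92 to 9.75 and 12.7 to 15.5 for open promoters (genotype, then age). The equal-length share by genotype passed without old WT Cre replicate 2 and position by genotype without old WT Cre replicate 1. Upstream minus downstream ranged from 5.57 to 5.93 for share, -1.19 to -0.815 for position, 3.75 to 4.82 for open promoters and -1.06 to 1.44 bp for width, and upstream minus intronic from -2.68 to -1.80, 1.94 to 2.71 and -1.69 to 0.938 bp. Position against intronic peaks passed without young EC-K4KO replicate 1. Gained regions ranged from 414 to 1326 in young EC-K4KO against young WT Cre, and lost ones from 1 to 2. In old EC-K4KO against old WT Cre the ranges were 663 to 1110 gained and 67 to 135 lost. For old WT Cre against young WT Cre they were 2183 to 2419 gained and 0 to 1 lost. Old EC-K4KO against young EC-K4KO gave 1625 to 2146 gained and 7 to 65 lost.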
